A study of Homo sapiens with 4 samples.

Results

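Genes of mitosis and chromosome segregation were followed in SKOV3 cells, a human ovarian cancer line, after exposure to the ginsenoside 20(S)-Rg3, a saponin of ginseng. The genes were the 40 rows of the count table, out of 40205, that carry the symbols of mitotic cyclins and kinases, checkpoint and kinetochore proteins, spindle motors and cytokinesis factors. They were picked by name and not by their values. Cells that had received 20(S)-Rg3 (80 µg/mL, 24 h) were set against control cells, in 2 libraries per group. All cells were grown in RPMI medium with fetal bovine serum, and the labels name no vehicle for the controls. Per the labels, each library was made from pooled RNA. Whether replicate libraries stem from different cultures is not stated, so the p-values reflect variation among 4 libraries that could be technical. In RNA from a whole culture, a smaller share of cells in mitosis and less RNA per mitotic cell cannot be told apart.

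Mitosis is started by cyclin B bound to the kinase CDK1, and it ends when the anaphase promoting complex, a ubiquitin ligase, marks cyclin B and securin for destruction. In between, kinetochores attach chromosomes to spindle microtubules, and the spindle checkpoint holds the ligase back until every kinetochore is attached. Transcripts of many of these genes are low in resting cells and peak in G2 and mitosis, which makes their summed level a customary readout of proliferation in tumour cells. Their promoters are known to be bound by the DREAM, MYB-MuvB and FOXM1 complexes at the cell cycle homology region, whose letters are TTTGAA or TTCGAA, and by NF-Y at CCAAT boxes.

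Promoter sequence was a feature that the choice of genes had not used. The RefSeq promoter table (GRCh38.p14) held 34 of the 40 genes, each as 250 bases before to 50 bases after an annotated start, and 5 genes had several starts. AURKA, BIRC5, BUB3, TPX2, TTK and UBE2C were not matched. Searched on both strands, TTTGAA or TTCGAA occurred in 26 of the 34 genes (76.5%), against 19.5% of the 27305 genes in that table. CCAAT occurred in 28 of the 34 (82.4%), against 39.7% of genes in the table, and both motifs occurred in the same window in 22 (64.7%), against 7.85%. Counted per window, 70.7% of the 41 windows of these genes and 16.4% of all 35116 windows held TTTGAA or TTCGAA. Of 42 matches to TTTGAA or TTCGAA, 28 began within 50 bases of the start, on either side. Of 70 matches to CCAAT, 48 began between 150 and 51 bases before it. Matches were counted for each start, so a site in overlapping windows of the same gene counts more than once. Positions were not counted over all promoters. A match describes the letters only and is no evidence of binding. The 150 bases before the start are printed for 4 genes whose values recur in the results, with both motifs in capitals on either strand (CCAAT reads ATTGG on the other strand). The first is the gene that differed most between the Rg3 libraries, the second is a cyclin with little difference between groups, and the others are a kinase and a proliferation marker that were highest in the first Rg3 library.
HMMR, chr5:163460482-163460631, plus strand: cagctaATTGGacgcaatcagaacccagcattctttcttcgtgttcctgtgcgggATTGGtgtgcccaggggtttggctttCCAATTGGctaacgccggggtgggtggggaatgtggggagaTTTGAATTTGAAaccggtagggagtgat
CCNB2, chr15:59104996-59105145, plus strand: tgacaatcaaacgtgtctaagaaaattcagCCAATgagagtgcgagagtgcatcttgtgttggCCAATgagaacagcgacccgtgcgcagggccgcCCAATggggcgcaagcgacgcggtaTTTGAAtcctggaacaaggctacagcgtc
PLK1, chr16:23678739-23678888, plus strand: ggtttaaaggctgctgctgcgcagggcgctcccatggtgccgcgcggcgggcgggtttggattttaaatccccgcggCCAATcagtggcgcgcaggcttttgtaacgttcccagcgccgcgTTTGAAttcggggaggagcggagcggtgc
MKI67, chr10:128126424-128126573, minus strand: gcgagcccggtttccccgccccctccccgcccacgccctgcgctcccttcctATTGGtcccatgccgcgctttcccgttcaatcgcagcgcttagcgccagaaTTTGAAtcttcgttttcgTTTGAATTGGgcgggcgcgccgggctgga

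**Figure D1:**
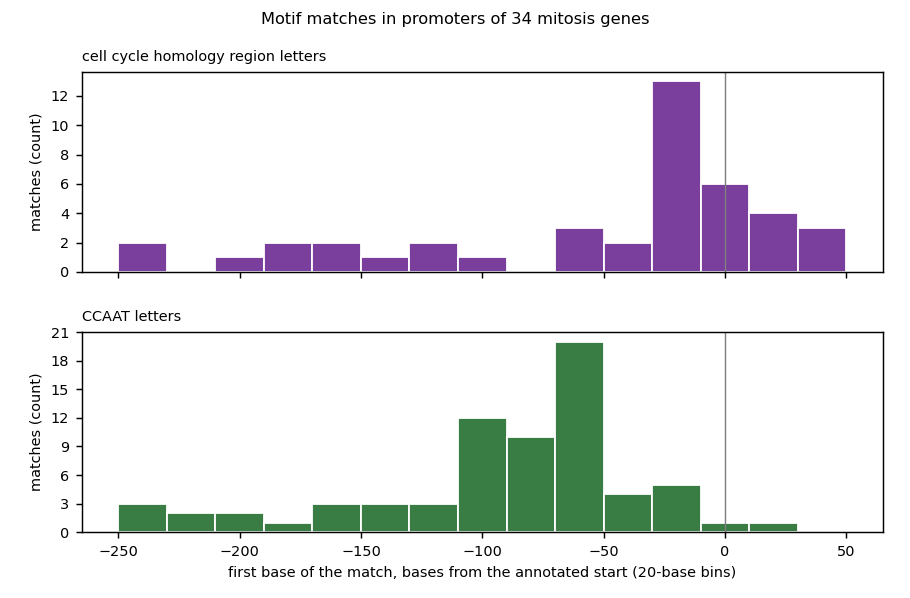
Histograms of motif matches (count of matches, 20-base bins) by distance in bases from the annotated start, over all listed starts of the 34 genes with a promoter, for TTTGAA or TTCGAA (top) and CCAAT (bottom). Matches to TTTGAA or TTCGAA gather around the start, where 28 of 42 lie within 50 bases, while 48 of 70 CCAAT matches lie between 150 and 51 bases before it. A site in overlapping windows of the same gene is drawn for each start.

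The Rg3 libraries held 30132517 and 24571619 counts, and the control libraries held 24482846 and 26731913. Replicates differed by more than counting noise, as the chi-square divided by its degrees of freedom was 49.2 for the Rg3 libraries and 10.0 for the control libraries, so each result below is also given for each Rg3 library where they part. Of 10 genes taken as markers of the line, the keratins KRT7, KRT8 and KRT18, the receptor ERBB2 and vimentin were detected in all libraries. ERBB2 was the lowest of these at 1089 to 1649 counts, while the keratins and vimentin had at least 14745. The other 5 of the 10 were low or absent, with 0 counts of EPCAM in all 4 libraries, at most 2 of KRT19, at most 3 of WT1, 8 to 18 of PAX8 and 15 to 44 of MUC16. The markers were thus mixed, and the identity of the line was not tested. Levels below are CPM, the counts of a gene relative to the depth of its library, scaled by TMM, a library scaling that sets aside genes with extreme ratios. CPM is not corrected for transcript length, so levels are compared between libraries and not between genes. Fold changes are Rg3 over control on the log2 scale from edgeR's quasi-likelihood test, and a gene was called at a Benjamini-Hochberg adjusted p under 0.05 over the 16323 genes tested.

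None of the 40 mitosis genes was called, yet most lay slightly higher with Rg3. With edgeR, 0 were called higher and 0 lower, where 0.0306% of all genes tested were called higher and 0% lower, and the smallest adjusted p among the 40 was 0.999. DESeq2 also called 0 of them, where it called 0.221% of all genes tested higher and 0.11% lower. Without a low-count filter edgeR called 0 of them too, where it called 0.351% higher and 0.483% lower. All 40 passed the low-count filter, with 118 to 13836 counts per gene and library. At an unadjusted p under 0.05 there was 1 of 40, BIRC5, against 4.73% of all genes tested in either direction and 1.83% in the same direction. The log2 fold change was above 0 in 38 of the 40, against 52.5% of all genes tested, and ran from −0.18 to 0.31. Its median was 0.15 over the 40 and 0.014 over all genes tested. The members share cells and libraries and tend to vary together, so this count of signs carries no p-value.

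The 95% interval of the log2 fold change lay between −1 and 1 for all 40 genes. Over all genes tested this held for 12341 of 16323. Each interval covers 1 gene and rests on 2 libraries per group, whose variation could be technical. Interval widths also draw on variation shared across all genes tested. The highest upper bound was 0.82, for HMMR, and the lowest lower bound was −0.56, for BUB1B. In CPM, both Rg3 libraries were above both control libraries in 15 of 40 genes, against 15.3% of all genes tested. Both were below in 1 of 40, BUB1B, against 17% of all genes tested. The groups overlapped in the other 24.

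**Figure D2:**
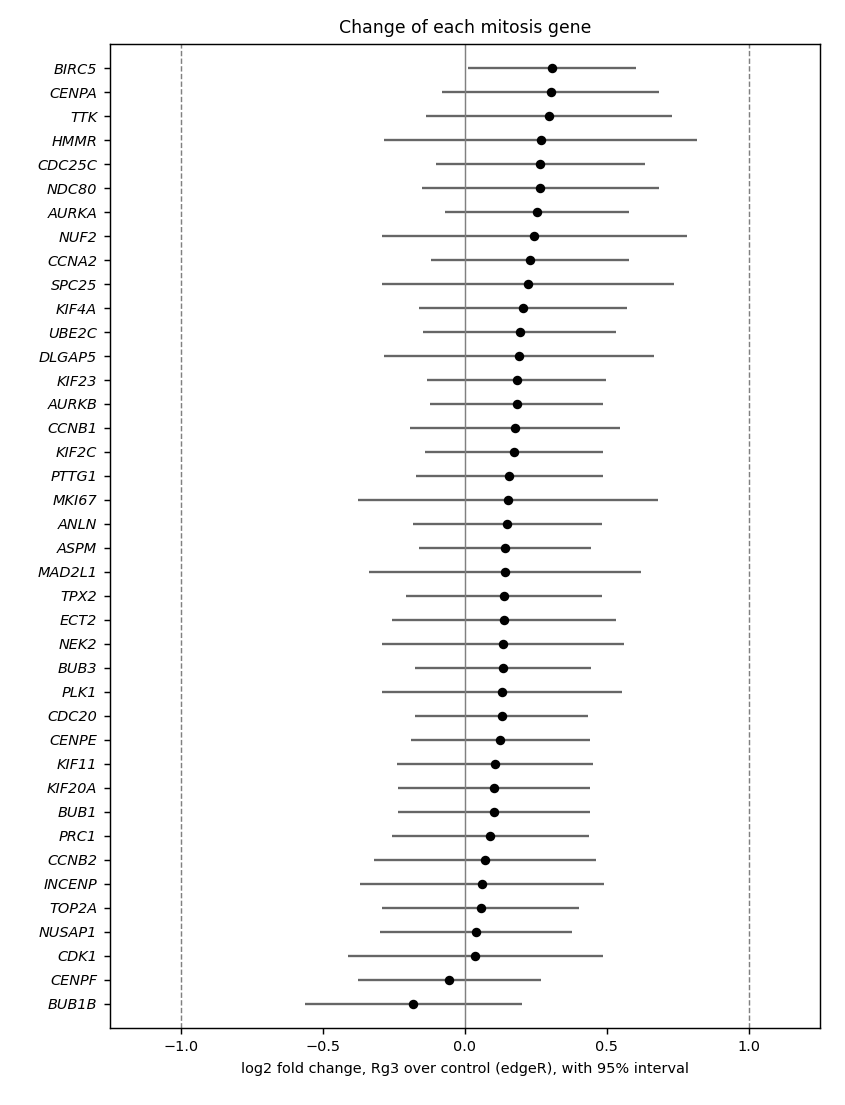
Log2 fold change of each of the 40 mitosis genes (Rg3 over control, edgeR, n = 2 libraries per group) with its 95% interval, ordered by value. All intervals lie inside the dashed lines at −1 and 1, and the points run from −0.18 for BUB1B to 0.31 for BIRC5.

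The upward lean came mostly from the second Rg3 library. Of the 40 genes, 33 had their highest CPM in Rg3 replicate 2, against 33.2% of all genes tested, and 5 had it in Rg3 replicate 1. The median log2 difference of Rg3 replicate 2 was 0.30 against control 1 and 0.22 against control 2. For Rg3 replicate 1 these medians were 0.061 and −0.0060. Over all genes tested the 4 medians lay between −0.0079 and 0.00075. The 40 genes together took 0.566% and 0.610% of the unscaled counts in the Rg3 libraries, against 0.528% and 0.547% in the controls. Their summed CPM was 5535 and 6226 with Rg3 and 5250 and 5532 in controls, so Rg3 replicate 1 was level with control 2. Rg3 replicate 1 was also the deepest library, and the part of depth in this difference was not tested.

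Leaving out 1 Rg3 library changed which genes were called. Over all genes tested, 48.8% of log2 fold changes were above 0 without Rg3 replicate 1 and 47.8% without Rg3 replicate 2. Their medians over all genes tested were −0.010 and −0.013. Without Rg3 replicate 1, 35 of the 40 log2 fold changes were above 0 with a median of 0.26. In that edgeR fit 7 of 40 were called higher and 0 lower, where 2.53% of all genes tested were called higher and 2.69% lower. The 7 were HMMR, NUF2, TTK, DLGAP5, NDC80, MAD2L1 and CCNA2, at log2 fold changes of 0.38 to 0.60. Without Rg3 replicate 2, 22 of 40 were above 0, the median was 0.033, and 1 of 40, MKI67, was called higher, where 1.8% of all genes tested were called higher and 0.879% lower. Without control 1, 0 of 40 were called, where 0.247% of all genes tested were called higher and 0.388% lower, and without control 2 it was 0 of 40 against 0.184% and 0.107%. Such a fit assumes that the lone Rg3 library varies like the controls. In 29 of the 40 genes the Rg3 libraries differed from each other by more than the log2 fold change between groups, and the same held for 69.9% of all genes tested.

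**Figure D3:**
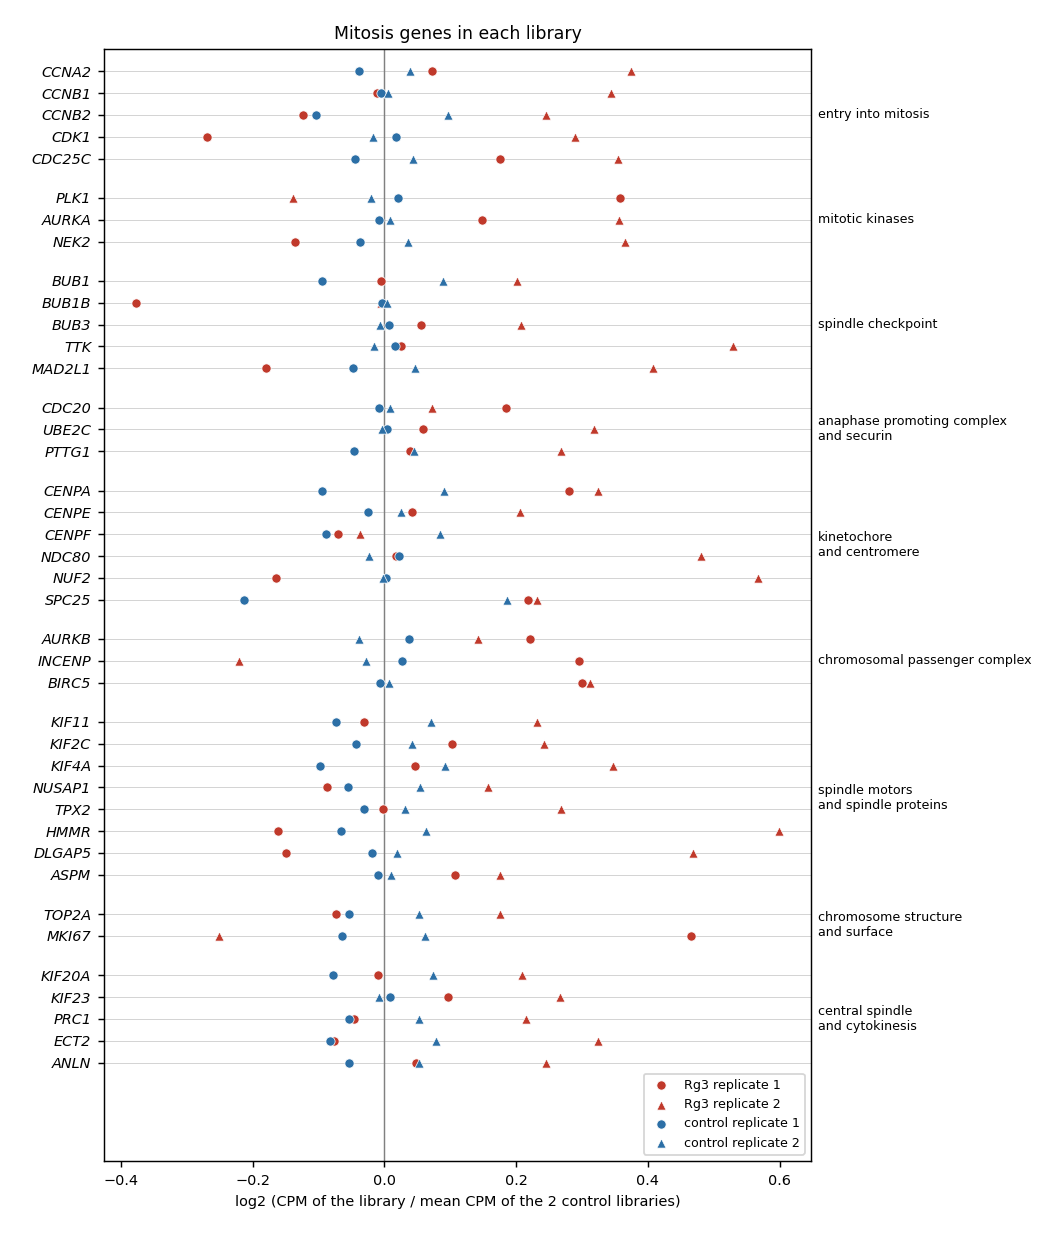
Log2 ratio of each library's CPM to the mean CPM of the control libraries, for the 40 mitosis genes in order of role, with Rg3 in red and control in blue (circles replicate 1, triangles replicate 2). Red triangles lie farthest right in 33 of 40 genes, while PLK1, INCENP, MKI67, CDC20 and AURKB have the red circle farthest right.

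Cyclins and their kinase, which start mitosis, were level or slightly higher with Rg3. Cyclin A (CCNA2), which acts from S phase into early mitosis, had 79.4 and 97.8 CPM with Rg3 and 73.5 and 77.5 CPM in controls. Its groups did not overlap, and its log2 fold change was 0.23 (SE 0.15, edgeR adjusted p = 0.999). Cyclin B1 (CCNB1) had 219 and 281 CPM with Rg3, against 220 and 222 CPM in controls, so the first Rg3 library sat with the controls. Cyclin B2 (CCNB2), whose promoter is printed above, had 62.7 and 81.0 CPM with Rg3 and 63.6 and 73.0 CPM in controls. CDK1, the kinase these cyclins activate, had 121 and 178 CPM with Rg3, on either side of the 147 and 143 CPM in controls. Its log2 fold change of 0.037 (SE 0.19) had an interval from −0.41 to 0.49. CDC25C, the phosphatase that removes inhibitory phosphates from CDK1, had 18.8 and 21.3 CPM with Rg3 against 16.2 and 17.2 CPM in controls, without overlap (log2 fold change 0.27, SE 0.16).

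Among the other mitotic kinases the libraries went different ways. AURKA, which matures centrosomes and builds the spindle, had 187 and 216 CPM with Rg3 and 168 and 170 CPM in controls. The groups did not overlap, and its unadjusted p was the second smallest of the 40 (log2 fold change 0.26, SE 0.14, edgeR adjusted p = 0.999). PLK1, the polo kinase that acts at centrosomes, kinetochores and the midbody, had 177 and 125 CPM with Rg3, around the 140 and 136 CPM in controls. NEK2, which splits the centrosomes, showed the opposite order within Rg3, with 63.1 and 89.4 CPM, against 67.6 and 71.2 CPM in controls. Both genes overlapped between groups, with intervals from −0.29 to 0.55 for PLK1 and from −0.29 to 0.56 for NEK2.

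Spindle checkpoint genes included the only gene of the 40 that was lower in both Rg3 libraries. BUB1B, which encodes the checkpoint protein BUBR1, had 31.2 and 40.4 CPM with Rg3 and 40.4 and 40.6 CPM in controls (log2 fold change −0.18, SE 0.16, edgeR adjusted p = 0.999). The second Rg3 library was just under the controls, and without Rg3 replicate 1 the log2 fold change was −0.0020. TTK, the kinase MPS1 that starts checkpoint signalling, had 40.03 and 56.8 CPM with Rg3, against 39.8 and 38.9 CPM in controls. The checkpoint protein MAD2L1 had 27.9 and 41.9 CPM with Rg3 and 30.5 and 32.6 CPM in controls. The second Rg3 library was well above both controls for TTK and MAD2L1, while the first lay just above them for TTK and below them for MAD2L1. Their log2 fold changes of 0.30 (SE 0.19) and 0.14 (SE 0.20) were 0.53 and 0.41 without Rg3 replicate 1. Without Rg3 replicate 2 they were 0.026 and −0.18. BUB1, a kinase that recruits checkpoint proteins to kinetochores, had 85.3 and 98.4 CPM with Rg3 and 80.1 and 91.0 CPM in controls, which overlapped. BUB3, its binding partner, had 132 and 147 CPM with Rg3 against 128 and 127 CPM in controls, without overlap.

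The activator, the ubiquitin-conjugating enzyme and the securin substrate of the anaphase promoting complex had log2 fold changes above 0, and none was called. CDC20, the activator that the checkpoint restrains, had 173 and 160 CPM with Rg3 and 151 and 153 CPM in controls. UBE2C, a ubiquitin-conjugating enzyme of the complex, had 51.5 and 61.6 CPM with Rg3 and 49.5 and 49.3 CPM in controls. Neither overlapped, and their log2 fold changes were 0.13 (SE 0.13) and 0.19 (SE 0.15). Securin (PTTG1), the inhibitor of separase, had 100 and 117 CPM with Rg3 against 94.4 and 101 CPM in controls, with a small overlap.

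Kinetochore and centromere genes had a median log2 fold change of 0.23, with 5 of 6 above 0. CENPA, the histone H3 variant that marks centromeres, had 16.1 and 16.6 CPM with Rg3 and 12.4 and 14.1 CPM in controls. It was among the few genes with close Rg3 libraries (log2 fold change 0.30, SE 0.16, edgeR adjusted p = 0.999). NDC80 and NUF2 form the microtubule-binding arm of the NDC80 complex, and both stood out in the second Rg3 library. NDC80 had 38.1 and 52.5 CPM with Rg3, against 38.2 and 37.0 CPM in controls. NUF2 had 33.3 and 55.4 CPM with Rg3, against 37.4 and 37.3 CPM in controls. SPC25, in the same complex, did not share that split, at 6.46 and 6.52 CPM with Rg3 and 4.79 and 6.32 CPM in controls, and had the fewest counts of the 40 genes. The kinetochore motor CENPE had 66.8 and 74.9 CPM with Rg3 against 63.8 and 66.1 CPM in controls, without overlap. The kinetochore protein CENPF was level, at 410 and 420 CPM with Rg3 and 405 and 457 CPM in controls (log2 fold change −0.054, SE 0.14).

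The chromosomal passenger complex, which corrects faulty attachments, held the gene with the smallest p of the 40. BIRC5, which encodes survivin, the subunit that docks the complex at centromeres and also an inhibitor of apoptosis, had 159 and 161 CPM with Rg3 and 129 and 130 CPM in controls. The libraries of each group agree within 2 CPM, and the groups are well apart. Its log2 fold change was 0.31 (SE 0.13, interval 0.0097 to 0.60, unadjusted p = 0.045 and adjusted p = 0.999 with edgeR). Its unadjusted p was not under 0.05 with DESeq2, nor with edgeR under upper quartile scaling or without a low-count filter. The log2 fold change was steady over the libraries. It stayed between 0.30 and 0.32 whichever library was left out, and it was not called in any of those fits. AURKB, the kinase of the complex, had 67.3 and 63.7 CPM with Rg3 against 59.2 and 56.2 CPM in controls, without overlap (log2 fold change 0.18, SE 0.13). INCENP, its scaffold, had 145 and 101 CPM with Rg3, on either side of 120 and 116 CPM in controls. AURKB and INCENP thus had their highest CPM in Rg3 replicate 1, while the Rg3 libraries of BIRC5 were nearly equal.

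Spindle motors and spindle proteins were all above 0, with a median of 0.16. HMMR, a microtubule-associated protein of the spindle poles, differed most between the Rg3 libraries of all 40 genes, at 62.6 and 106 CPM, against 66.9 and 73.2 CPM in controls. DLGAP5, which stabilises microtubules near chromosomes, had 74.3 and 114 CPM with Rg3 against 81.3 and 83.5 CPM in controls. In both genes the first Rg3 library was below both controls and the second above both. The sign of their log2 fold change turned without Rg3 replicate 2, to −0.16 for HMMR and −0.15 for DLGAP5, against 0.60 and 0.47 without Rg3 replicate 1. The motor KIF4A, which binds chromosome arms, had 123 and 151 CPM with Rg3 and 111 and 126 CPM in controls. KIF2C, a depolymerising kinesin at centromeres, had 149 and 165 CPM with Rg3 against 135 and 143 CPM in controls, without overlap. ASPM, a spindle pole protein, also showed no overlap, with 237 and 248.9 CPM with Rg3 and 219 and 222 CPM in controls. The remaining members, the plus-end motor KIF11, the spindle assembly factor TPX2 and the microtubule bundler NUSAP1, overlapped between groups, with log2 fold changes of 0.11 (SE 0.15), 0.14 (SE 0.15) and 0.040 (SE 0.14).

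Of the genes of chromosome structure, MKI67 and TOP2A are common proliferation markers, and they did not move together. MKI67, which encodes the Ki-67 antigen of the chromosome surface, had 244 and 148 CPM with Rg3, on either side of 169 and 184 CPM in controls. TOP2A, the topoisomerase that untangles sister chromatids, had 449 and 534 CPM with Rg3 and 455 and 490 CPM in controls. The Rg3 libraries thus stood in opposite order for these markers. The log2 fold change of MKI67 was 0.15 (SE 0.23) over all libraries, −0.25 without Rg3 replicate 1 and 0.47 without Rg3 replicate 2, where it was called (edgeR adjusted p = 0.044). PLK1, INCENP and MKI67 were the genes with the second Rg3 library lowest of all.

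Central spindle and cytokinesis genes were all slightly above 0, with a median of 0.14. KIF23, the motor of centralspindlin, had 200 and 225 CPM with Rg3 and 188 and 186 CPM in controls, without overlap (log2 fold change 0.18, SE 0.14). PRC1, which bundles antiparallel microtubules, had 286 and 343 CPM with Rg3 and 285 and 307 CPM in controls. ECT2, the exchange factor that activates RhoA at the cleavage furrow, had 119 and 157 CPM with Rg3 and 119 and 133 CPM in controls. These, the motor KIF20A and the ring scaffold ANLN overlapped between groups, with log2 fold changes from 0.090 for PRC1 to 0.15 for ANLN.

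**Figure D4:**
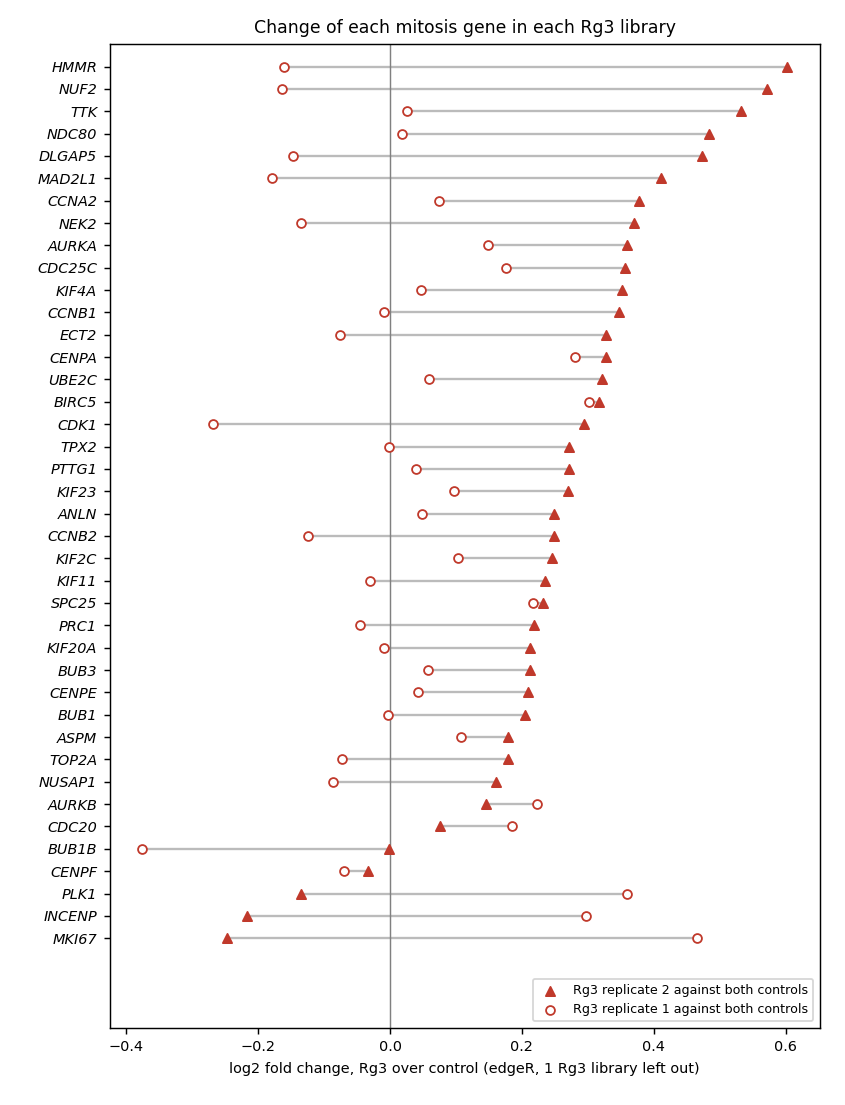
Log2 fold change (edgeR) of each mitosis gene with 1 Rg3 library left out, so that filled triangles set Rg3 replicate 2 and open circles set Rg3 replicate 1 against both control libraries. Triangles lie right of circles for most genes, from 0.60 against −0.16 for HMMR, and left of them for MKI67, at −0.25 against 0.47, INCENP, PLK1, CDC20 and AURKB.

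The Rg3 libraries differed more than the controls over these genes and over all genes alike. The median absolute log2 difference over the 40 was 0.26 between the Rg3 libraries and 0.077 between the controls, and over all genes tested it was 0.29 and 0.14. Rg3 replicate 2 exceeded Rg3 replicate 1 in 35 of 40 genes, against 51.1% of all genes tested, with a median log2 difference of 0.24. Control 2 minus control 1 had a median of 0.076. The largest such differences in either direction between the Rg3 libraries were 0.76 for HMMR, 0.73 for NUF2 and −0.72 for MKI67. By promoter motif, the 26 genes with TTTGAA or TTCGAA had a median of 0.25 and the 8 without had a median of 0.22. Their median log2 fold changes between Rg3 and control were 0.14 and 0.17, and no test was made.

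Other mitosis genes, listed by role, were likewise not called. Over all genes tested 52.5% of log2 fold changes were above 0, with a median of 0.014. Cohesin and condensin genes, which hold and compact chromosomes, had 17 of 19 log2 fold changes above 0 and a median of 0.093. Their median log2 differences against control 1 and control 2 were 0.16 and 0.11 for Rg3 replicate 2. For Rg3 replicate 1 these were 0.042 and −0.0029. The 29 other kinetochore and centromere genes had 24 above 0 and a median of 0.11, but here the Rg3 libraries parted. The median log2 differences against control 1 and control 2 were 0.32 and 0.29 for Rg3 replicate 2. For Rg3 replicate 1 they were −0.060 and −0.11. Of the 29 genes, 25 were highest in Rg3 replicate 2 and 17 were lowest in Rg3 replicate 1. The 25 other spindle motors and assembly factors had 20 above 0 and a median of 0.13. Their medians against control 1 and control 2 were 0.17 and 0.14 for Rg3 replicate 2, and 0.085 and 0.075 for Rg3 replicate 1. Subunits and partners of the anaphase promoting complex had 9 of 18 above 0 and a median of 0.019. Regulators of mitotic transcription and entry had 13 of 24 above 0 and a median of 0.050. In each of these lists 0 genes were called higher and 0 lower with edgeR, and DESeq2 called 0 as well. Over all genes tested edgeR called 0.0306% higher and 0% lower, and DESeq2 called 0.221% and 0.11%. At an unadjusted p under 0.05 there were 2 of 29 kinetochore genes and 1 of 24 regulators, all higher, and 0 in the other 3 lists, where 1.83% of all genes tested were higher at that threshold and 4.73% differed in either direction.

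CENPP and CENPI belong to the protein network that stays on centromeres through the cell cycle. CENPP had 7.95 and 8.18 CPM with Rg3, against 5.24 and 5.56 CPM in controls, and its log2 fold change was 0.58 (SE 0.19, edgeR adjusted p = 0.960). CENPI had 18.4 and 21.7 CPM with Rg3, against 14.04 and 15.7 CPM in controls, a log2 fold change of 0.43 (SE 0.17, edgeR adjusted p = 0.999). Neither gene overlapped between groups, but both were named for their small p, so this adds no support. Both Rg3 libraries were above both controls in 6 of the 29 kinetochore genes (20.7%) and 5 of the 24 regulators (20.8%). The same held for 7 of 19 cohesin and condensin genes (36.8%) and 9 of 25 spindle genes (36%). It held for 3 of 18 anaphase promoting complex genes (16.7%), and the share over all genes tested was 15.3%. Both were below both controls in 4 of 24 regulators and 3 of 18 anaphase promoting complex genes, against 17% of all genes tested. This held for 0 cohesin and condensin, kinetochore and spindle genes. CKS1B, a small subunit bound to CDK1, averaged 40.5 ± 3.86 CPM with Rg3 and 31.0 ± 0.734 CPM in controls (SD, n = 2 each), without overlap, at a log2 fold change of 0.39 (SE 0.14). Its relative CKS2 had 0.30 (SE 0.18), and the edgeR adjusted p of CKS1B and of CKS2 was 0.999. CKS2 had 53.3 and 74.9 CPM with Rg3 and 52.7 and 51.2 CPM in controls, so its first Rg3 library sat near the controls. From the remaining lists the genes with the smallest p were CDC23 at 0.30 (SE 0.15), UBE2S at 0.34 (SE 0.18), SMC4 at 0.21 (SE 0.13), NCAPD3 at 0.20 (SE 0.14), CDCA3 at 0.23 (SE 0.14) and STIL at 0.20 (SE 0.13), all log2 fold changes with an edgeR adjusted p of 0.999. Over the full lists, the edgeR fit without Rg3 replicate 1 called 2 of 18 anaphase promoting complex genes, 4 of 29 kinetochore genes, 2 of 24 regulators and 1 of 38 G1/S genes higher, and 0 in the other lists and 0 lower, where 2.53% of all genes tested were called higher and 2.69% lower. Those among the genes named here were CDC23, CENPI, CKS1B, CKS2 and DBF4, at 0.43, 0.54, 0.48, 0.53 and 0.50. Over all fits that leave out 1 library, their lowest log2 fold changes were 0.18, 0.31, 0.29, 0.040 and 0.14, in the same order. The fit without Rg3 replicate 2 called 2 of 18 anaphase promoting complex genes higher, among them UBE2S at 0.54, and 1 of 24 regulators lower, where 1.8% of all genes tested were called higher and 0.879% lower. In the fits without control 1 or without control 2, 0 genes of these lists were called.

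Genes of G1/S and DNA replication, the neighbouring phase, had 22 of 38 log2 fold changes above 0, against 52.5% of all genes tested. Their median was 0.012, close to the 0.014 of all genes tested, but the Rg3 libraries parted. The median log2 differences against control 1 and control 2 were 0.12 and 0.061 for Rg3 replicate 2. For Rg3 replicate 1 they were −0.043 and −0.13. None was called, where edgeR called 0.0306% of all genes tested higher and 0% lower. At an unadjusted p under 0.05 there were 0, against 4.73% of all genes tested in either direction. DBF4, the activator of the replication kinase CDC7, had the smallest p at a log2 fold change of 0.33 (SE 0.18). RRM2, a subunit of ribonucleotide reductase, followed at 0.20 (SE 0.13). This list too was highest most often in Rg3 replicate 2, in 22 of 38 genes, against 33.2% of all genes tested. The difference between the mitosis genes and this list was not tested.

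**Figure D5:**
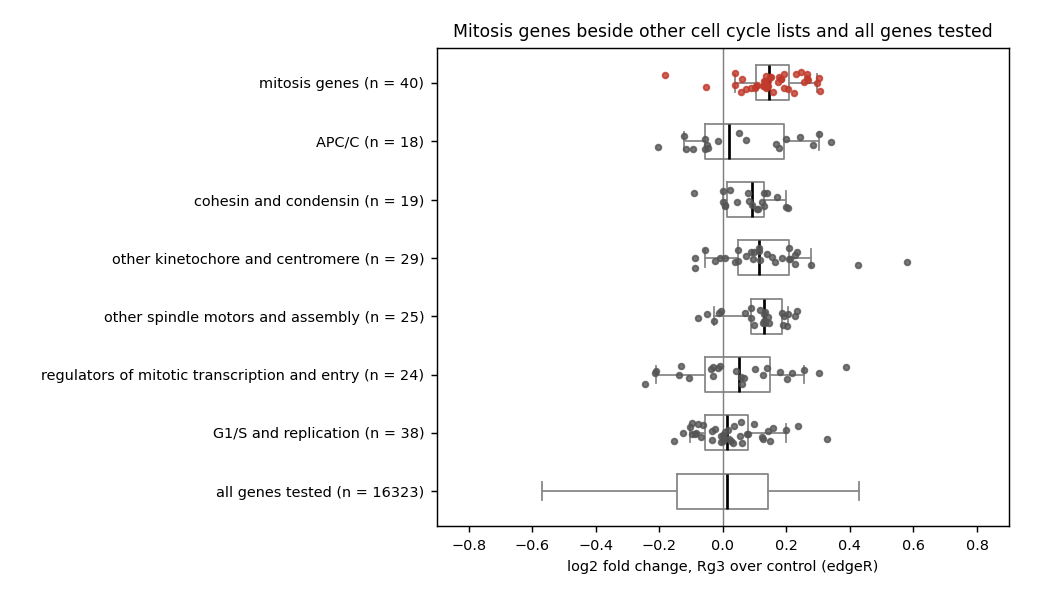
Log2 fold change (Rg3 over control, edgeR) of the 40 mitosis genes (red), 6 other cell cycle lists (grey points, 1 per gene) and all genes tested (box only), with boxes from the lower to the upper quartile, a line at the median and whiskers from the 5th to the 95th percentile. The mitosis genes centre on 0.15, the G1/S list on 0.012 and all genes tested on 0.014.

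Some counts may hold reads of similar or overlapping genes, since nothing in the labels or the file states how strands and multiply mapped reads were counted. By symbol, 19 copies or partners of 10 of the genes were in the table, and 3 had more than 5% of the counts of the gene they resemble. The pseudogene CDC20P1 had 696 and 488 counts with Rg3 and 380 and 455 counts in controls, or 11.9% of those of CDC20. MAD2L1P1 had 71 and 70 counts with Rg3 and 88 and 77 in controls (8.8%), and KIF4B, a near-identical intronless copy of KIF4A, had 280 and 252 counts with Rg3 and 207 and 301 in controls (7.71%). In the RefSeq gene table, CCNA2 overlaps EXOSC9, CDC25C overlaps FAM53C, SPC25 overlaps NOSTRIN and KIF20A overlaps CDC23, whose counts amounted to 47.2%, 171%, 40.1% and 15.1% of the counts of those genes. The values of these 7 genes are therefore less certain.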

How the data were processed

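The deposited table holds whole-number read counts for each gene symbol, which the authors left unnormalised, with 1 column for each of the 4 libraries. Per the labels' protocols, RNA was extracted with TRIzol, depleted of ribosomal RNA and made into libraries with a total RNA kit. Per the submitters' processing notes the build was GRCh37. Aligner and counter are not given in the sources used here, and the series text and protocol name different instruments. Of 40205 genes, 14537 had no count. Genes were tested with edgeR 4.0.16 under R 4.3.3 (filterByExpr, minimum count 10, minimum total 15, TMM, quasi-likelihood test, treatment as the only term, 2 residual degrees of freedom). Standard errors came from the F statistic. The 95% intervals used its total degrees of freedom (median 7.475), which add information shared across genes to the residual ones. Per-library log2 differences used a prior count of 2. DESeq2 1.42.0, limma 3.58.1 (voom) and other scalings, filters and leave-outs served as alternatives. The fit was tested on simulated data. Genes, lists and tests were chosen with earlier results of these data known. All 40 genes are named, and from each other list the 2 with the smallest p.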

Additional observations from a re-analysis of the deposited data

How the results depend on the processing

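The 40 mitosis genes kept their sign under every change of model, scaling and filter tried with all 4 libraries, with 38 above 0 and 0 called each time, and a median from 0.117 (upper quartile scaling) to 0.154 (no low-count filter). The count over all genes did move. DESeq2 called 36 higher and 18 lower, edgeR without a low-count filter 90 and 124, and upper quartile scaling called 2 lower. With the replicate number as a replicate block edgeR called 69 higher and 86 lower but 0 mitosis genes, at a median of 0.137. The labels do not say whether a number marks a shared culture or batch, and the deviations of same-numbered libraries had r = 0.149 across genes tested and 0.0285 across the 40, so whether the numbers pair the libraries is not settled. Leaving out 1 library, edgeR called 31 to 428 genes higher and 18 to 456 lower, 0 to 7 mitosis genes higher, and 22 to 39 of the 40 were above 0. Over those fits the sign turned in 20 of the 40. Log2 fold changes ran from −0.00982 to 0.348 for CCNB1, −0.124 to 0.249 for CCNB2, −0.268 to 0.294 for CDK1, −0.136 to 0.359 for PLK1, −0.135 to 0.369 for NEK2, −0.00367 to 0.205 for BUB1, −0.179 to 0.411 for MAD2L1, −0.128 to 0.0380 for CENPF, −0.163 to 0.571 for NUF2, −0.217 to 0.297 for INCENP, −0.0301 to 0.236 for KIF11, −0.0869 to 0.161 for NUSAP1, −9e-04 to 0.272 for TPX2, −0.161 to 0.603 for HMMR, −0.148 to 0.473 for DLGAP5, −0.0728 to 0.179 for TOP2A, −0.247 to 0.466 for MKI67, −0.00942 to 0.212 for KIF20A, −0.0452 to 0.218 for PRC1 and −0.0763 to 0.328 for ECT2. The cause was not tested. Precision is limited by the 2 libraries per group and their spread.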

Other observations

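Markers of other cell types were mostly near 0 in this line, with exceptions. PTPRC, CD3E and LUM had at most 3 counts in any library. CDH5, the endothelial cadherin, had 498 and 389 counts in the Rg3 libraries and 442 and 515 in the controls, while the endothelial genes PECAM1 and VWF had at most 17. PDGFRB, a growth factor receptor of mesenchymal cells, had 1056 and 669 counts in the Rg3 libraries and 682 and 784 in the controls. COL1A1, a collagen of fibroblasts, had 144 and 39 counts in the Rg3 libraries and 48 and 60 in the controls. CD68, a lysosomal protein of macrophages, had 533 and 252 counts in the Rg3 libraries and 525 and 442 in the controls. The mitosis genes were not read against these values.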
